A study of Homo sapiens with 3 samples.

Results

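The 39 human HOX genes are the homeobox transcription factor genes of the HOXA, HOXB, HOXC and HOXD clusters. They were taken from the deposited gene table as every protein-coding row whose symbol was HOX, a letter from A to D and a number, and all 39 of the 46427 rows were used. The choice used names only and no measured value. Of the 39 members, 34 reached 1 CPM (counts scaled to the depth of the library) in at least 1 library and entered the comparisons, namely 10 of 11 in HOXA, 9 of 10 in HOXB, 9 of 9 in HOXC and 6 of 9 in HOXD.

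The study sequenced poly(A) RNA from MG-OKS cells, a human line that the series title describes as an osteosarcoma model made to resemble cancer stem cells and that is labelled as mesenchymal. There were 3 groups of 1 library each. The WT library came from cells that were not transfected. The scrambled library came from cells given a scramble siRNA, and the targeting library from cells given an siRNA against SPRR1A (labelled SPRR1A knock down), both with Lipofectamine RNAiMAX. Values given in threes are in the order WT, scrambled, targeting. All 3 were cultures of the same line in DMEM with fetal bovine serum. The WT culture had no transfection, so it and the scrambled control differ in that step, and nothing in the labels says whether the line is a clone.

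Depth was 40050593 counts in the WT, 36533542 in the scrambled and 34453554 in the targeting library. SPRR1A, the targeted gene, had 0 counts in all 3 libraries and so did not check the labels. Since each group has 1 library, differences have no replicate check and no p-value is given. Of 13 mesenchymal markers 12 reached 1 CPM, and their summed TPM (a level per transcript length, scaled to the same total in each library) was 4451 in the WT, 4254 in the scrambled and 2019.5 in the targeting library. VIM alone held 3509.6, 3523 and 1436 TPM of this sum, which therefore mostly follows VIM. Of 11 keratinocyte and epithelial markers 7 reached 1 CPM, with summed TPM of 6599.9, 2692 and 3718, carried by KRT14 and KRT6A, while CDH1 had 2, 2 and 9 counts. Of 7 osteoblast markers 3 reached 1 CPM, and SP7 and IBSP were at 0 in every library. Endothelial and blood markers summed to at most 2.63 TPM, and of 5 pluripotency markers 1, DNMT3B, reached 1 CPM. In a bulk library fewer expressing cells and less RNA per cell cannot be told apart.

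HOX genes encode DNA-binding proteins that give cells along the body axis and along the limb their positional identity. The genes of a cluster are numbered from its 3' end, and low numbers are active in the hindbrain and neck while high numbers are active in the trunk, tail and distal limb. Genes with the same number in different clusters are paralogues that arose by cluster duplication and often share functions. Cultured mesenchymal cells commonly keep the HOX pattern of the body site they came from, and the TALE homeodomain proteins of the PBX and MEIS families bind DNA together with HOX proteins.

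HOX transcripts came from all 4 clusters, and the 5 highest members of each library were numbered 6 to 10, apart from HOXB2 in WT cells. The summed HOX level was 384 TPM in the WT, 395 TPM in the scrambled and 405 TPM in the targeting library, which was 0.0384%, 0.0395% and 0.0406% of all deposited TPM. HOXB7 was the highest member in WT cells at 49.7 TPM, and stood at 42.3 TPM in the scrambled and 45.3 TPM in the targeting library. HOXA9, which acts in trunk patterning and in blood progenitors, was the highest member in both siRNA libraries, at 67.6 TPM in the scrambled and 79.4 TPM in the targeting library, against 43.0 TPM in WT cells. HOXC10, a gene of the lumbar region and hindlimb, was also among the 3 highest in each library, at 44.9, 38.5 and 43.9 TPM in the WT, scrambled and targeting libraries. HOXC6, a gene of the thoracic region, came next in each library, at 31.4, 28.0 and 35.0 TPM in the same order. The 5 highest members of a library held 50.1% of its summed HOX level in WT cells, 50.7% in scrambled and 56.0% in the targeting library. The order of the top 3 differed between the WT library and the others.

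**Figure D1:**
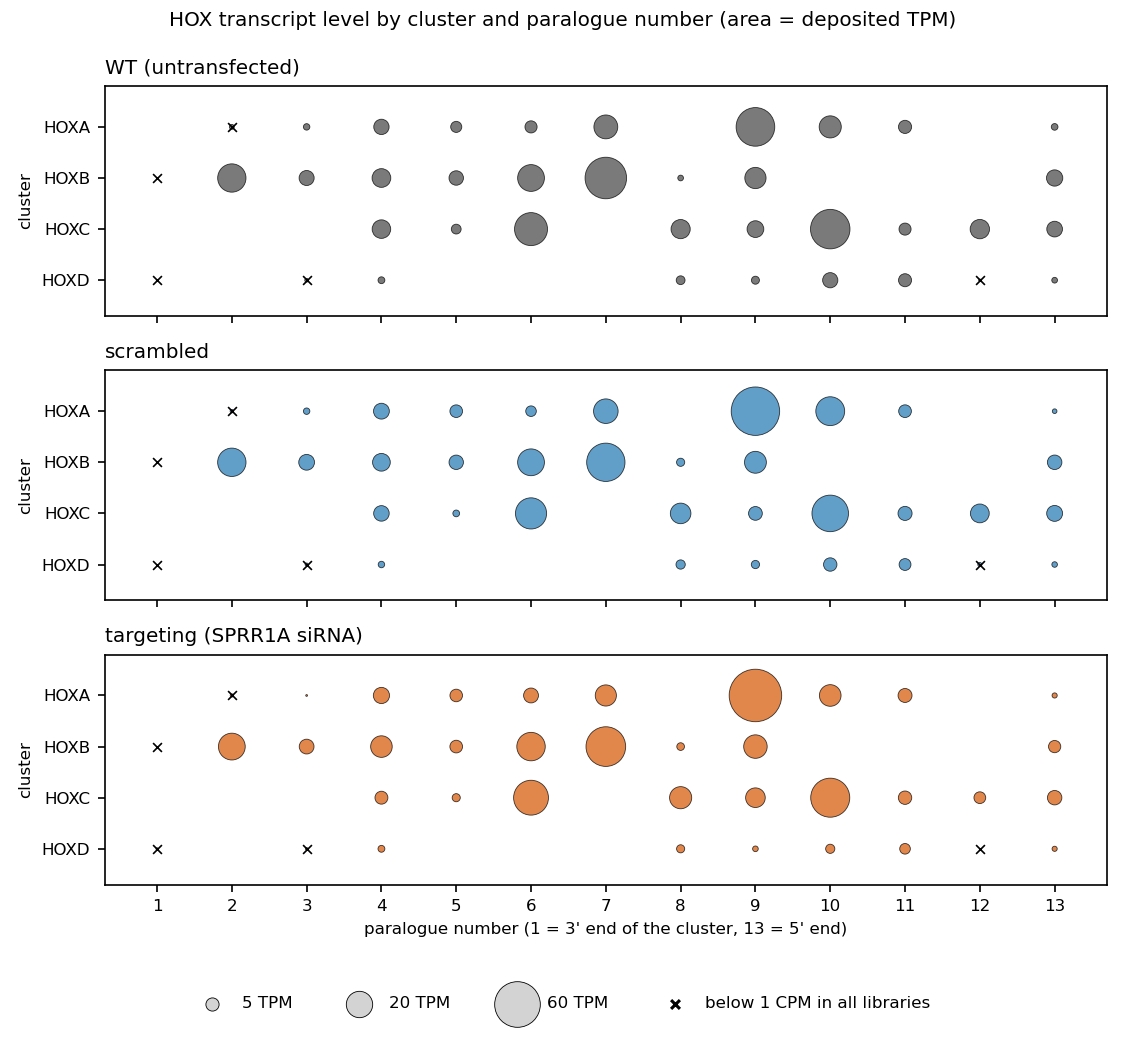
Deposited TPM of 38 HOX genes by cluster (rows) and paralogue number (columns), with 1 panel per library; the area of a circle is the TPM and a cross marks a gene under 1 CPM in all libraries. The largest circles are HOXB7, HOXA9 and HOXC10 in each panel, and the HOXD row holds small circles only.

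By cluster, HOXA, HOXB and HOXC each held over 25% of the summed level and HOXD held little. HOXA held 25.4% of the summed HOX TPM in the WT, 33.6% in the scrambled and 32.7% in the targeting library. HOXB held 35.9%, 32.9% and 33.5%, and HOXC held 33.8%, 29.3% and 31.1%, in the same order. HOXD held 4.84%, 4.19% and 2.70%, from summed levels of 18.6, 16.6 and 11.0 TPM. Among the 3 large clusters the smallest share was that of HOXA in the WT library and that of HOXC in the others. The summed HOXA level was 97.5, 133 and 133 TPM, of which HOXA9 made up 43.0, 67.6 and 79.4 TPM.

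By paralogue number, genes 9 to 13, the trunk to distal limb set, held 45.3%, 49.7% and 48.6% of the summed TPM in the WT, scrambled and targeting libraries. Genes 6 to 8 held 35.5%, 32.5% and 34.7%, and genes 1 to 5 held 19.2%, 17.8% and 16.6%. Within these, paralogue group 9 held 17.2%, 22.5% and 26.5%, and group 12 stood at 2.86%, 2.71% and 0.984%. These shares come from 1 library each and have no replicate error.

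**Figure D2:**
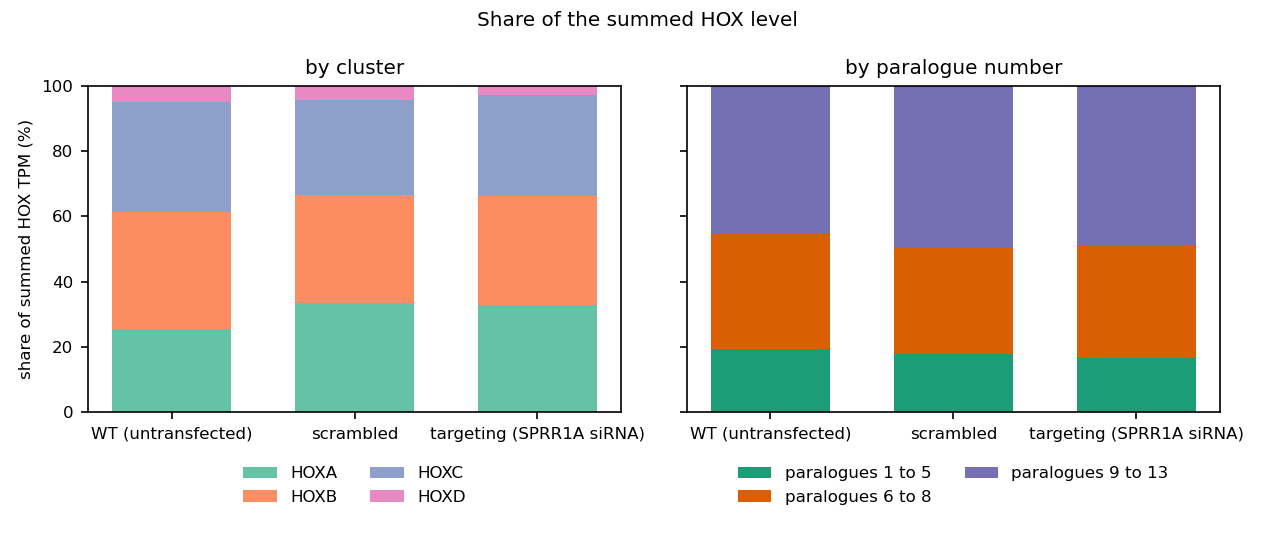
Share of the summed HOX TPM (percent, vertical axis) in each library, stacked by cluster on the left and by paralogue number on the right. HOXD is the thin top band, from 4.84% in WT to 2.70% in the targeting library, and genes 9 to 13 hold between 45.3% and 49.7%.

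At the 3' ends, which pattern the hindbrain and pharyngeal arches, most members were low. HOXB1 was the only member at 0 counts in every library, where a floor of 3 counts corresponds to 0.0737 CPM in the WT, 0.0826 in the scrambled and 0.0880 in the targeting library. HOXD1 had 3, 0 and 4 counts, HOXA2 had 22, 10 and 9, and HOXD3 had 28, 14 and 13, all under 1 CPM. HOXB2, in contrast to HOXA2, was expressed, with 672, 605 and 521 counts and 23.1, 23.2 and 20.7 TPM. HOXB3 had 624, 459 and 473 counts.

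Genes 4 to 8 were present wherever a cluster has them. In HOXA they ran from 55 counts for HOXA6 in the scrambled library to 607 for HOXA7 in WT cells. HOXB6 had 718, 674 and 691 counts in the WT, scrambled and targeting libraries, and HOXB4, known for its role in blood stem cells, had 371, 309 and 426. HOXC8, a thoracic gene, had 471, 505 and 541 counts. HOXD4 and HOXD8, the only HOXD genes in this range, had 103, 85 and 82 and 100, 103 and 77 counts.

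At the 5' ends all 4 members numbered 13 reached 1 CPM. HOXB13, a gene of the tail and the prostate, had 428, 315 and 209 counts in the WT, scrambled and targeting libraries. HOXC13, needed for hair and nail formation, had 307, 294 and 225. HOXA13 and HOXD13, which pattern the digits, were lower, with 119, 53 and 62 counts and with 43, 37 and 31. HOXA11, which shapes the forearm and lower leg together with HOXD11, had 245, 213 and 239 counts, and HOXD11 had 154, 118 and 89. HOXC11 had 253, 318 and 268 counts.

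**Figure D3:**
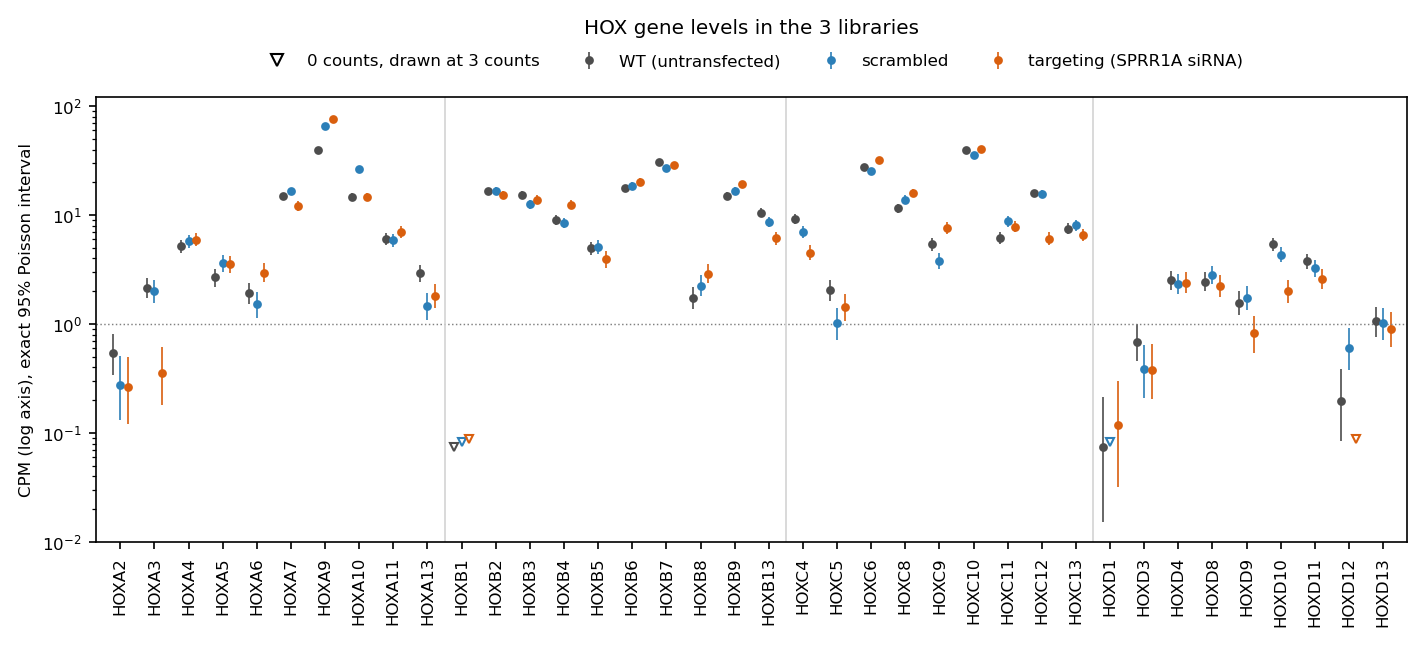
CPM (log axis) of 38 HOX genes in the 3 libraries, ordered by cluster and number, with exact Poisson 95% intervals that cover counting error only; open triangles mark 0 counts drawn at the level of 3 counts, and the dotted line is 1 CPM. HOXA3, HOXC12, HOXD10 and HOXD12 have the targeting point well below both others, and HOXA9 has both siRNA points above the WT one.

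The main question of the design was what the siRNA against SPRR1A does relative to the scrambled one. The call rule asked for a log2 ratio of 1 or more in either direction, with 1 outside the 95% counting interval of the ratio. It compares libraries, not conditions. Of the 34 members, 4 were called lower and 0 higher in the targeting than in the scrambled library. Over all 14233 genes at 1 CPM or more, 7.26% were called lower and 3.70% higher, so that 4 of 34 members (11.8%) is not far from the background and says nothing particular about HOX genes. The median log2 ratio of the members was 0.01, with 17 above and 17 below 0, and that of all genes was 0.00.

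HOXA3, a gene of the pharyngeal arches needed for the thymus and parathyroid in mice (NCBI Gene 3200, chr7:27107010-27152583, GRCh38), had 88 counts in the WT, 73 in the scrambled and 12 in the targeting library. The controls lay close together and the targeting library far below them, with counting intervals of 57.2 to 91.8 in the scrambled and 6.20 to 21.0 in the targeting library. It was 5.71-fold below the scrambled library (95% interval 3.08 to 11.6) and 6.14-fold below the WT library (3.34 to 12.3). HOXA3 reached 1 CPM in the controls alone and stood at 0.352 CPM in the targeting library, so the filter favoured these calls. Its deposited TPM was 1.21, 1.20 and 0.0924 in the WT, scrambled and targeting libraries. The counts per unit of TPM were 2.07 times those of the WT library, relative to the median gene, so the authors' per-length value fell further than the counts. HOXA3 spans HOXA4, HOXA5 and HOXA6 in RefSeq, and its value depends on how reads in that stretch were assigned.

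HOXC12, near the 5' end of the HOXC cluster and expressed in hair follicles in mice (Gene 3228, chr12:53954903-53958956), had 648, 569 and 207 counts in the WT, scrambled and targeting libraries. The controls had nearly the same CPM, 15.9 and 15.7, and the targeting library had 6.07. HOXC12 was 2.58-fold below the scrambled (2.20 to 3.04) and 2.62-fold below the WT library (2.24 to 3.08). Its neighbours did not share the call: HOXC13 had a log2 ratio of -0.29 and HOXC11 of -0.15 to the scrambled library.

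HOXD10, which patterns the hindlimb and its motor neurons in mice (Gene 3236, chr2:176116778-176119937), had 219, 158 and 69 counts in the WT, scrambled and targeting libraries. It was 2.15-fold below the scrambled library (1.61 to 2.89) and 2.66-fold below the WT library (2.02 to 3.53). HOXD9, its 3' neighbour (Gene 3235, chr2:176122719-176124937), had 64, 63 and 28 counts and was 2.11-fold below the scrambled library (1.33 to 3.42). HOXD9 reached 1 CPM in the controls alone and stood at 0.822 CPM in the targeting library, so the filter favoured this call. To the WT library HOXD9 had a log2 ratio of -0.89, which missed the rule. With HOXD9 and HOXD10 the targeting library was the lowest, and the controls were alike for HOXD9. HOXD12 had 8, 22 and 0 counts, under 1 CPM in every library and thus outside the counts above. Against a floor of 3 counts in the targeting library, with the other library's counts taken as exact, it lay at least 6.88-fold below the scrambled and at least 2.23-fold below the WT library. With the counting error of both libraries the 95% limits were 5.14-fold and 1.43-fold. HOXD11 stood at a log2 ratio of -0.31 against the scrambled and -0.52 against the WT library, and HOXD13 at -0.16 and -0.20, so the size of the difference varied along the cluster. Of the 6 HOXD genes compared, 5 had a log2 ratio below 0 to the scrambled library, with a median of -0.32. Of all 14233 genes at 1 CPM or more, 7125 lay below 0. The intervals of HOXD4, HOXD8, HOXD11 and HOXD13 to the scrambled library included 1. These genes are neighbours measured in the same libraries, so their values are not independent.

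No member met the rule upwards against the scrambled library, but HOXC9 and HOXA6 came close. HOXC9, a thoracic gene, had 219, 138 and 260 counts in the WT, scrambled and targeting libraries, a ratio of 2.01 to the scrambled library (1.63 to 2.49) whose log2 value with a prior count of 2 was 0.995. HOXA6 had 78, 55 and 101 counts, a ratio of 1.96 (1.40 to 2.77). In both the scrambled library was the lowest of the 3 and the WT library lay between, with ratios of the targeting to the WT library of 1.42 for HOXC9 and 1.55 for HOXA6. Along HOXC, HOXC9 thus had a log2 ratio near 1 while HOXC10 had 0.18 and HOXC8 0.19.

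Against the WT library, the second control, 4 members were again called lower and 0 higher, where 8.36% of all genes were lower and 2.35% higher. Both comparisons share the targeting library, so their values stand side by side and are not independent. The values of HOXA3, HOXC12 and HOXD10, which were called here, are given above. The remaining call was HOXC4 (Gene 3221, chr12:54016888-54056030), with 375, 255 and 154 counts in the WT, scrambled and targeting libraries. It was 2.04-fold below the WT library (1.68 to 2.47) and had a log2 ratio of -0.63 to the scrambled library. HOXC4 overlaps HOXC5 and HOXC6, which start at the same position in RefSeq. Their summed counts were 1589, 1219 and 1302, and the ratio of the sum was 0.979 to the WT library (0.909 to 1.05). HOXC6 made up 1131, 927 and 1099 of these counts. The sum could therefore not meet the rule through HOXC4, and it does not test the HOXC4 call. The median log2 ratio of the 34 members was -0.08, and all 6 HOXD genes lay below 0 with a median of -0.36. Of all 14233 genes at 1 CPM or more, 7170 lay below 0. The intervals of HOXD4, HOXD8 and HOXD13 to the WT library included 1.

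**Figure D4:**
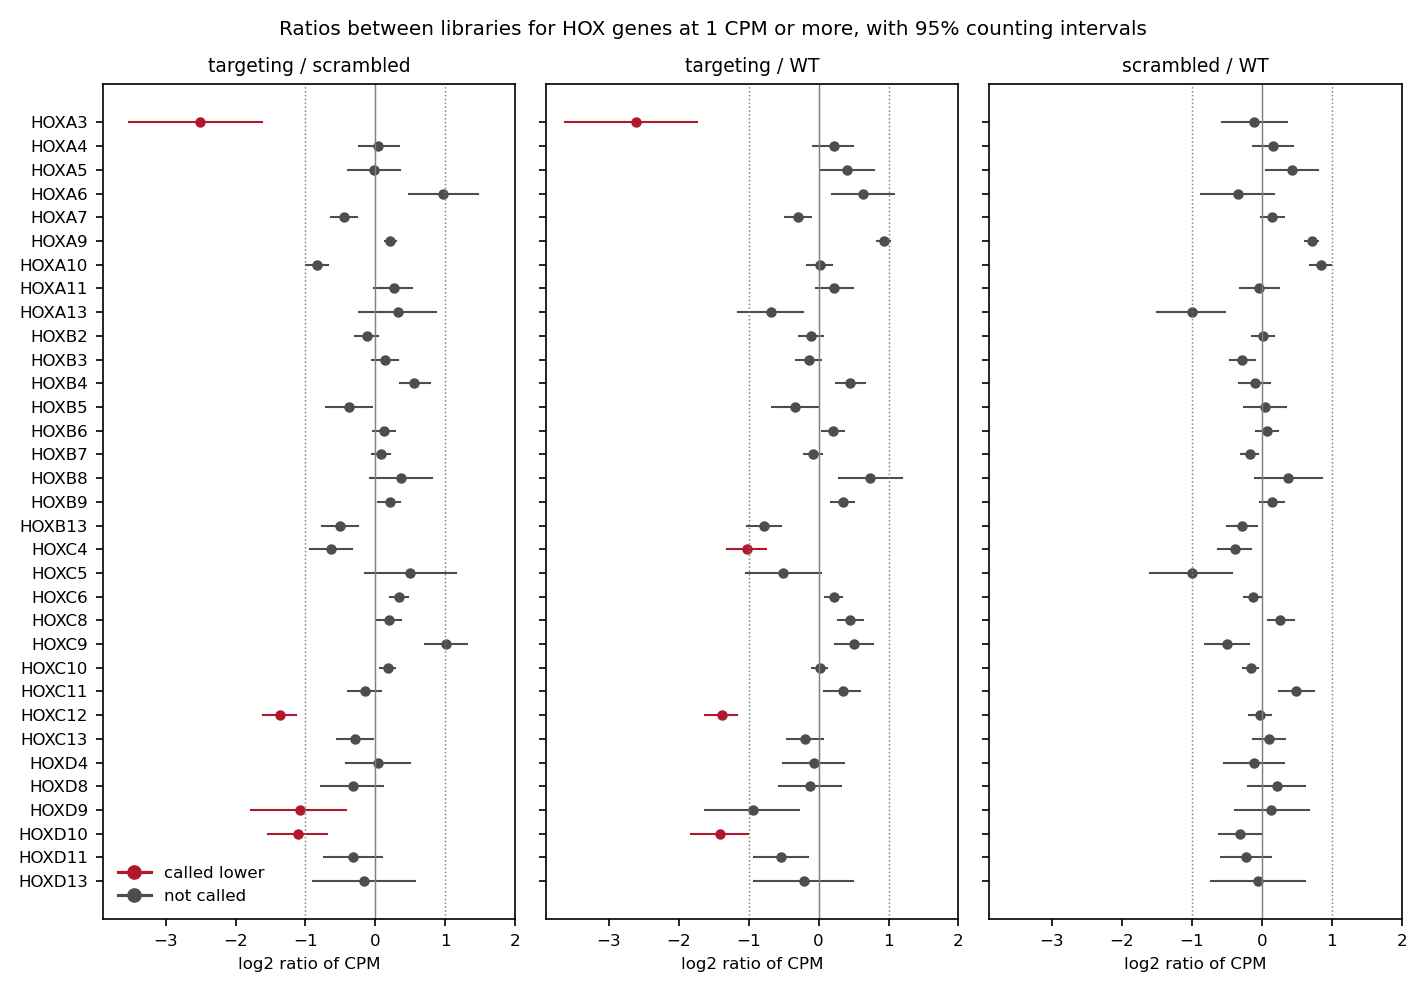
Log2 ratio of CPM, without a prior count, for 33 HOX genes at 1 CPM or more in the 3 comparisons; bars are 95% counting intervals, dotted lines mark 2-fold, and red marks genes called lower. HOXA3, HOXC12 and HOXD10 are red in the first 2 panels and none is red in the third.

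For the scrambled against the WT library, 0 members were called in either direction by this rule, where 1.51% of all genes were higher and 3.44% lower. HOXA13 and HOXC5 lay at the edge, each with a ratio of 0.50 (0.354 to 0.696 for HOXA13 and 0.330 to 0.745 for HOXC5) and log2 ratios of -0.98 and -0.96. HOXA9 and its neighbour HOXA10, a gene of the uterus and of the limb, were higher without being called. HOXA9 (Gene 3205, chr7:27162438-27165537) had 1628, 2380 and 2600 counts in the WT, scrambled and targeting libraries. Both siRNA libraries were above the WT one, with ratios of 1.64 (1.54 to 1.75) for the scrambled and 1.91 (1.79 to 2.03) for the targeting library. HOXA10 had 598, 954 and 504 counts, so that it was high in the scrambled library alone, with a ratio of 1.79 (1.61 to 1.99) to the WT library. In the targeting library HOXA10 stood at 1.01 times the WT level (0.893 to 1.14), below its scrambled level. The readthrough gene HOXA10-HOXA9, which overlaps both, had 16, 6 and 36 counts, too few to change HOXA9 when added to it (summed ratio 1.92 to the WT library).

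Most members differed little between libraries. Of the 34 members, 21 (61.8%) had a ratio within 1.5-fold in all 3 comparisons, against 58.8% of all genes at 1 CPM or more. Within 1.2-fold in all 3 were 8 members, HOXA4, HOXA11, HOXB2, HOXB6, HOXB7, HOXC10, HOXD4 and HOXD13. HOXA4, for example, had 210, 209 and 203 counts in the WT, scrambled and targeting libraries. Some counting intervals of the 8 members reached beyond 1.2-fold, such as 0.525 to 1.40 for HOXD13 to the WT library. The share of all genes within 1.2-fold was not computed. HOXB held no called gene in any comparison, and its log2 ratios to the scrambled library ran from -0.50 for HOXB13 to 0.55 for HOXB4. HOXB13 had ratios of 0.707 (0.591 to 0.845) to the scrambled and 0.584 (0.492 to 0.690) to the WT library.

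Some markers of mesenchymal and epithelial cells were called in the same comparisons as the lower HOX genes. Against the scrambled library 3 of 12 mesenchymal markers were called lower and 0 higher, with a median log2 ratio of -0.56, and against the WT library 6 were lower with a median of -0.91. Of 7 keratinocyte and epithelial markers, TP63, SFN and ITGB4 were lower against the scrambled library. TP63 reached 1 CPM in the WT and scrambled libraries alone, so the filter favoured its calls. The other 4 markers had log2 ratios above 0 that were not called, and the median of the 7 was 0.41. Against the WT library 3 were lower, with a median of -0.96, and 4 were lower in the scrambled than in the WT library, with a median of -1.15. Over all genes at 1 CPM or more, 7.26% were called lower and 3.70% higher against the scrambled library. Against the WT library 8.36% were lower and 2.35% higher, and between the controls 3.44% and 1.51%. The lists here and below are small, and their counts are to be read beside these shares. The part of the markers in the HOX values was not tested.

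The promoters of 20 of the 39 members were found in the RefSeq table (GRCh38.p14, the first listed start of each gene). The 20 are mostly HOXA and HOXD, with HOXB1 alone from HOXB and HOXC4 and HOXC5 alone from HOXC. None was found for HOXC12 and HOXD9. The promoters of 3 called genes are shown because these members were lower in the targeting library. HOXC4 and HOXC5 have the same entry and are counted separately. Capitals mark CCAAT and TATAAA on either strand (ATTGG and TTTATA on the other), from 250 bases before to 50 after the start, 5' to 3' along the gene.
HOXA3, chr7:27152534-27152833, minus strand: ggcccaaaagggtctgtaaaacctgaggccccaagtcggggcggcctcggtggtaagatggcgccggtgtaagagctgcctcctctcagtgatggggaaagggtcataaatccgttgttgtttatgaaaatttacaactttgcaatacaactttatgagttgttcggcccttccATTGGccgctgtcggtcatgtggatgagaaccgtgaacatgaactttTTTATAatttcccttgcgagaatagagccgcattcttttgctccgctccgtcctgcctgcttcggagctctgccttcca
HOXC4 and HOXC5, chr12:54016638-54016937, plus strand: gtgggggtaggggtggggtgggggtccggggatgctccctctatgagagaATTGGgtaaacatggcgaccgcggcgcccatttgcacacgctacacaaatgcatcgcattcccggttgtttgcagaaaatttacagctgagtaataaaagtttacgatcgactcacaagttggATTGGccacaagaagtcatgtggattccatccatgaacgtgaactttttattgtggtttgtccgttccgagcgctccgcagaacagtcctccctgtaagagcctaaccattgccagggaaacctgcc
HOXD10, chr2:176116528-176116827, plus strand: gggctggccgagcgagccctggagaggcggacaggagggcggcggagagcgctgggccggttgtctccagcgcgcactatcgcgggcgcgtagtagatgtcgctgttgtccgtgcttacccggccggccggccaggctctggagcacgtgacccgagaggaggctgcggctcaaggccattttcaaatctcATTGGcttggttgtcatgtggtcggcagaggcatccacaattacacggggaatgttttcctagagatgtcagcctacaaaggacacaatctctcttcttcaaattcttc

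CCAAT, the box bound by the factor NF-Y, was found on either strand in 17 of the 20 HOX promoters and in 35.7% of all 27305 promoters of this length. All 3 promoters shown hold it, HOXC4 in 2 places. TATAAA was found in 4 of 20, HOXA3, HOXA9, HOXA10 and HOXD13, and in 12% of all. TGATTNAT, letters that PBX and HOX proteins can bind together, was in 2 of 20 (HOXA2 and HOXD11) and 2.94% of all, and TGACAG, bound by MEIS and PKNOX proteins, in 4 of 20 and 15.9% of all. The ratio of observed to expected CpG had a median of 0.869 in the HOX promoters and 0.580 in all. As HOX genes with and without a call hold the CCAAT box, the match describes these promoters and says nothing about the calls.

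A 7-base sequence, GTCACCC, was met in an earlier analysis of these libraries in the 3' UTRs of genes low in the targeting library, so its link with low genes is not independent here. In the longest GENCODE 3' UTR of each gene it was found in 12.3% of 12041 protein-coding genes at 1 CPM or more, in 25.9% of those lower than in the scrambled library and in 8.78% of those higher. Among the 34 HOX genes compared it was in 3. These were HOXA3 and HOXC12, lower in the targeting library against both controls, and HOXB9, with 617, 608 and 655 counts in the WT, scrambled and targeting libraries. HOXD9, HOXD10 and HOXC4 did not hold it. The 3' UTRs of HOXA3, HOXC12 and HOXB9 had 1731, 2390 and 1741 bases. Those of HOXD9, HOXD10 and HOXC4 had 762, 711 and 825 bases. A longer UTR has more places for a match, and the shares above were not adjusted for length. The sites are shown, with the 7 bases in capitals, since HOXA3 and HOXC12 are the called members with a match. The HOXA3 site lies beyond the end of the gene in RefSeq.
HOXA3, chr7:27106371-27106393, minus strand: tggggagaGTCACCCtgagccag
HOXC12, chr12:53958535-53958557, plus strand: cttgactgGTCACCCactgtacc
HOXB9, chr17:48622517-48622539, minus strand: acccaaaaGTCACCCagggacac

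The HOX clusters also hold microRNA genes, among them the miR-196 genes beside the genes numbered 9 and 10 and MIR10A beside HOXB4. miR-196 is known to pair with HOX transcripts. The mature sequences (RefSeq, GRCh38.p14) are shown with the seed, bases 2 to 8, in capitals. The seed is the same in miR-196a and miR-196b.
hsa-miR-196a-5p, chr12:53991762-53991783 and chr17:48632532-48632553: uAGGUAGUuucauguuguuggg
hsa-miR-196b-5p, chr7:27169528-27169549: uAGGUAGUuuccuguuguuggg
hsa-miR-10a-5p, chr17:48579904-48579926: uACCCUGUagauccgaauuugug

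The libraries hold poly(A) RNA and do not measure mature microRNAs. Counts at the hairpin genes were 7, 5 and 2 for MIR196A1, 3 in each library for MIR196B and 0, 0 and 1 for MIR10A in the WT, scrambled and targeting libraries. The match to the miR-196 seed, ACTACCT, was in the 3' UTR of 9 of the 39 members (23.1%) and of 8.06% of the 12041 genes. Among them were HOXA7, HOXA9, HOXB7, HOXB13 and HOXC8, and HOXA7 held it 4 times. A HOXA7 and a HOXC8 site are shown as examples of the match, in capitals.
HOXA7, chr7:27154600-27154622, minus strand: tggcgcgtccaaaatACTACCTa
HOXC8, chr12:54012230-54012252, plus strand: ataaatctttaacatACTACCTa

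HOXB1, which also holds the match, was at 0 counts and was not compared, and none of the other 8 was called in the 3 comparisons. Against the scrambled library 7.26% of all genes were called lower and 3.70% higher. At such shares the absence of calls among 8 genes says nothing particular about them. HOXA7 had 607, 600 and 414 counts in the WT, scrambled and targeting libraries, with a log2 ratio of -0.44 against the scrambled and -0.29 against the WT library. The match to the miR-10a seed, ACAGGGT, was in 7.69% of the members, HOXA3 and HOXB3 among them, against 14.7% of the genes.

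The clusters and their edges hold other genes, mostly non-coding, with a few coding genes and a readthrough gene among those listed. Of 30 listed, 26 were in the table and 10 reached 1 CPM, and the highest in each library were HOXC-AS3 at 8.47 TPM in the WT, PRAC2 at 8.91 TPM in the scrambled and HOTAIR at 9.82 TPM in the targeting library. HOTAIR, an antisense RNA that overlaps HOXC11 in RefSeq, had 343, 329 and 371 counts in the WT, scrambled and targeting libraries, and so did not follow HOXC12. PRAC2, between HOXB9 and HOXB13, had 105, 105 and 67. Against the scrambled library 1 was higher and 1 lower. The higher one was HOXA10-HOXA9, above, which reached 1 CPM in the targeting library alone, so the filter favoured this call. The lower one was HAGLR, which overlaps HOXD1 in RefSeq, with 53, 33 and 12 counts and a log2 ratio of -1.25. Against the WT library HAGLR and HOXC-AS3 (58, 36 and 19 counts) were lower and HOXA10-HOXA9 higher. HAGLR and HOXC-AS3 reached 1 CPM in the WT library alone, so the filter favoured these calls too. The library kit keeps strand, but whether counting used it was not given in the sources used here, so reads of a HOX gene and of an antisense partner may not be separated. In RefSeq 23 of the 39 members overlap another gene.

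Genes of the TALE homeodomain class were detected beside the HOX genes. Of 11 listed, 9 reached 1 CPM, and PBX2 was the highest in both controls, with 52.0 TPM in the WT, 47.5 in the scrambled and 29.4 in the targeting library. MEIS1, which binds DNA with HOXA9 and PBX proteins, had 210, 217 and 73 counts, and was called lower against the scrambled library at a log2 ratio of -1.46 and against the WT library at -1.25. It was the only listed TALE gene called against the scrambled library, where the median of the 9 was -0.12. Against the WT library 4 listed TALE genes were lower, PBX4 (-1.25) and PKNOX2 (-1.78) among them, and the median of the 9 was -0.77. PKNOX2, with 67, 17 and 15 counts, was also lower in the scrambled than in the WT library. It reached 1 CPM in the WT library alone, so the filter favoured its calls. PBX4 reached 1 CPM in the WT and scrambled libraries but not in the targeting one, so the filter favoured its call as well. TGIF1, a TALE repressor, was the highest of the listed TALE genes in the targeting library at 50.1 TPM.

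Polycomb proteins keep HOX clusters silent and Trithorax proteins keep them active. All 28 listed Polycomb genes and all 19 Trithorax and related genes reached 1 CPM, and RBBP7 and PSIP1 had the highest WT levels of each list, at 211 and 555 TPM. Against the scrambled library 1 Polycomb gene was higher and 2 were lower, with a median log2 ratio of 0.08. MTF2, a partner of the Polycomb methyltransferase complex, had 1310, 963 and 2469 counts in the WT, scrambled and targeting libraries and was higher at 1.45. PCGF2 (-1.04) and PHC2 (-1.11), of the other Polycomb complex, were lower. Against the WT library MTF2 (1.17) and RNF2 (1.08) were higher and PCGF2 (-1.08) lower. Of the Trithorax list only ASH1L, a histone methyltransferase gene, was called, at 1.27 to the scrambled library.

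Retinoic acid switches on genes at the 3' end of the clusters. Of 18 genes of its pathway 11 reached 1 CPM, and the binding protein gene CRABP2 was the highest in WT cells, with 451, 325 and 254 TPM in the WT, scrambled and targeting libraries. The receptor gene RXRA had 3841, 2694 and 852 counts and was lower, with a log2 ratio of -1.57 against the scrambled and -1.91 against the WT library. ALDH1A1 had 30, 83 and 19 counts. It was lower in the targeting than in the scrambled library (-1.94), and higher in the scrambled than in the WT library (1.57). ALDH1A1 reached 1 CPM in the scrambled library alone, so the filter favoured these calls. RARA was lower than in the WT library (-1.07). The median of the 11 was -0.30 to the scrambled and -0.37 to the WT library.

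Other homeobox and limb genes gave a mixed positional picture. Of 16 upstream and flanking homeobox genes 9 were at 0 in all libraries, among them CDX1, CDX2 and CDX4, activators of HOX genes in the embryo, and EVX1 and EVX2, which flank HOXA and HOXD (chosen after their values were seen). DLX1 was the highest, at 17.1, 10.6 and 18.3 TPM in the WT, scrambled and targeting libraries. DLX3 (-1.34) and DLX4 (-1.23) were lower than in the WT library, and DLX4 was also lower in the scrambled library (-1.03). Of 37 limb and jaw genes 28 reached 1 CPM. PITX1, which specifies the hindlimb, was the highest at 126 TPM in WT cells, with 5391, 3758 and 2889 counts, while TBX4 and TBX5, the hindlimb and forelimb T-box genes, were at 0 in all 3 libraries (chosen after their values were seen). PAX9, a gene of the pharynx, teeth and vertebrae, had 377, 462 and 98 counts and was lower against the scrambled (-2.12) and the WT library (-1.67). MSX2 was lower against each, at -1.08 and -1.21. HAND2 had 76, 24 and 47 counts, a ratio of 2.09 of the targeting to the scrambled library, and was lower in the scrambled than in the WT library (log2 ratio -1.43). HAND2 was under 1 CPM in the scrambled library alone, so the filter favoured both calls. LHX2 was lower than in the WT library (-1.16). The median of the 28 was 0.15 to the scrambled and -0.21 to the WT library.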

How the data were processed

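The authors deposited 1 gene table with whole-number counts, FPKM and TPM for the WT, scrambled and targeting libraries. HISAT2 2.1.0 and GRCh38 (hg38) are named in the submitters' processing notes, and rows have NCBI Gene identifiers, per the file headers. How reads were counted, strand included, was not given in the sources used here. TPM came to 999225, 999391 and 999131 per library, and the deposited FPKM served only as an alternative for cluster shares.

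CPM were computed from counts with edgeR 4.0.16 in R 4.3.3 (TMM factors 1.0169, 0.994 and 0.9892, in that order). A prior count of 2 was added for log2 ratios, and folds and their intervals carry none. Genes at 1 CPM or more of total counts in at least 1 library (14233 of 46427, 30.7%) were compared. Levels carry exact Poisson and ratios exact conditional binomial 95% intervals, which cover counting error only, as the labels name no molecular identifiers. The 2-fold rule was tested on simulated data with changes larger than those of most called HOX genes. It was not tested for changes near 2-fold or for the variation between real cultures, which is unknown here. DESeq2 1.42.0 size factors were among the alternatives. Coordinates are RefSeq GRCh38.p14, and 3' UTRs and their sites are from GENCODE v29 (GRCh38).

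The HOX genes, the 12 other lists and the tests were chosen with earlier results of these data known. Every HOX gene could be named, and of the other lists the genes called in any comparison and the highest by TPM. Some genes counted in the totals are not reported here by name and are not drawn.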

Additional observations from a re-analysis of the deposited data

How the results depend on the processing

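HOXA3 and HOXC12 stayed lower against both controls under every alternative in which they were compared. HOXA3 is removed by a filter of 5 CPM. With log2(TPM + 1), a scale that understates changes of low genes, HOXA3 stood at -1.01 against the scrambled and -1.02 against the WT library. Both values lie close to the threshold, and the deposited TPM of HOXA3 fell further than its counts. Against the scrambled library 2 members were lower with a filter of 5 CPM and 2 with log2(TPM + 1), where HOXD9 (-0.63) and HOXD10 (-0.85) missed the threshold. HOXC9 made 1 higher member with a prior count of 0.5. With a 1.5-fold threshold 2 members were higher against the scrambled library, 3 higher and 7 lower against the WT library, and 2 higher and 2 lower between the controls. Between the controls 1 was higher with no expression filter (HOXD12) and 1 lower with total counts without TMM (HOXA13). HOXC4 against the WT library was -0.91 with log2(TPM + 1) and -0.03 when summed with HOXC5 and HOXC6, an alternative chosen after seeing the data. That sum is largely HOXC6 and does not test HOXC4. At 5 CPM, 22 members were expressed in place of 34. By raw counts, not per length, HOXB held 34%, 30.3% and 32.0% and HOXC 35.2%, 31.2% and 31.9% in the WT, scrambled and targeting libraries, so that HOXC exceeded HOXB in WT and scrambled cells, and HOXD held 3.00% in the targeting library. The other 63 summary values were within 1.5 times or within counting error, and no value reversed. No paired analysis was possible because each group has 1 library, and leaving a library out leaves no comparison. Depth limits the members under 1 CPM and others such as HOXA3, HOXB8, HOXC5, HOXD9 and HOXD13, which rest on fewer than 100 counts per library.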
